A study of Mus musculus with 12 samples.

Results

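Cd4, Cd8a, Cd8b1, Cd2, Cd5, Cd6, Cd27 and Cd28 encode coreceptors and other surface proteins by which T cells are recognised, and they are described here on 12 Affymetrix arrays. The 8 genes were taken by gene symbol out of 22180 genes measured, and each had 1 probe set. All 4 groups, of 3 arrays each, carry the genotype R26rtTA;Col1a12lox-4F2A, an rtTA activator at Rosa26 with an inducible cassette of the reprogramming factors Oct4, Sox2, Klf4 and Myc at Col1a1. Leukemia cells came from the spleen in a NOTCH1 mouse model, and the 3 arrays carry the same leukemia number in their titles. GFP-positive colonies, labelled partially reprogrammed, and GFP-negative colonies, labelled reprogrammed, were grown from the leukemia cells, and the labels do not say what GFP marks. The last group is established induced pluripotent stem (iPS) cells, labelled Notch-1 and likewise as derived from leukemia, kept in embryonic stem cell medium. The titles number the arrays of each group as biological replicates, but the labels do not say whether these are separate animals or cultures. The p-values therefore reflect the array-to-array spread alone, whose source is not known.

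CD4 and CD8 are the coreceptors of the T cell receptor. CD4 binds MHC class II and CD8, a pair of an alpha and a beta chain, binds MHC class I, and each brings the kinase LCK to the receptor. Immature T cells of the thymus carry both coreceptors before one is silenced, and leukemias driven by Notch1 in mice often carry both too. CD2 is an adhesion receptor whose ligand in mice is CD48. CD5 and CD6 are scavenger-receptor-type proteins that dampen receptor signals, and CD6 binds ALCAM. CD28 is the receptor for the costimulatory proteins CD80 and CD86, and CD27 is a TNF receptor family member that binds CD70. Reprogramming to pluripotency silences the genes of the starting cell type.

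Promoter sequence was at hand for 3 of the genes, and it is shown because all 3 were lower in each later group than in leukemia. The windows run from 250 bases before to 50 bases after the start of the gene in RefSeq (mouse build GRCm38.p6). They were searched on both strands for motifs of T cell transcription factor families and for the TATA motif. Capitals mark the matches.
Cd8a, chr6:71373177-71373476, plus strand: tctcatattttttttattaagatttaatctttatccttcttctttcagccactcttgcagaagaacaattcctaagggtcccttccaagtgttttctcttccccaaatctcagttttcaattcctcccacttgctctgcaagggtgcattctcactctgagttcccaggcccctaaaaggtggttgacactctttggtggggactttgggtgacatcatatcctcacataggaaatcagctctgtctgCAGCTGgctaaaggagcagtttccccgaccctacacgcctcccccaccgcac
Cd5, chr19:10738925-10739224, minus strand: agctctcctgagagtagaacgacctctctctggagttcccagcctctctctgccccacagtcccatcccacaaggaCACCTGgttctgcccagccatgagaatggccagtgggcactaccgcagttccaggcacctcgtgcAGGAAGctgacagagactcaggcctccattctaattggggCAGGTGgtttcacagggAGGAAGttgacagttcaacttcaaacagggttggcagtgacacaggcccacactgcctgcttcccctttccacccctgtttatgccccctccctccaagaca
Cd27, chr6:125236978-125237277, minus strand: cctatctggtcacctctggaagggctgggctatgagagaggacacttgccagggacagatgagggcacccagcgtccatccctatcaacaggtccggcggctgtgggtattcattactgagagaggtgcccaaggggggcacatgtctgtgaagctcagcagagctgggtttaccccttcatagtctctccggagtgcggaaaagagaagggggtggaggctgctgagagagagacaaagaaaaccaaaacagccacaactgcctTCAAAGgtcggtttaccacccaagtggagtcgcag
The window of Cd8a, the CD8 alpha chain, held the E box CAGCTG, first base at position -2, where the start is position 1. The window of Cd5 held the ETS motif AGGAAG at positions -109 and -52 and the E box CAGGTG at -69, with the same E box on the other strand, as CACCTG, at -174. The window of Cd27 held the TCF/LEF motif CTTTGA on the other strand, as TCAAAG, at position 16. No window held the RUNX motif TGTGGT, the GATA motif AGATAA or the TATA motif TATAAA. Of all 32851 RefSeq windows of this length, 32.9% held 1 of these 2 E boxes, 35.4% the ETS motif, 16% the TCF/LEF motif, 16.8% the RUNX motif, 11.2% the GATA motif and 13.6% the TATA motif. The windows of Cd8a and Cd5 had 3 CpG dinucleotides each and that of Cd27 had 7, against a median of 7 over all windows. The matches describe the letters of these windows, and binding was not measured.

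Values are log2 levels of a probe set, from which levels of different genes cannot be compared. The medians of the arrays lay between 5.76 and 5.82. The correlation between 2 arrays of the same group, taken over all genes, was at least 0.994 in leukemia and iPS cells but ran from 0.937 to 0.975 in GFP-positive and from 0.887 to 0.970 in GFP-negative colonies. GFP-positive replicate 3 and GFP-negative replicate 1 stood apart from their groups, so counts are also given without both. For comparisons with leukemia the share of all genes called without both, or without 1 array, is not given, so those counts have no such share beside them. In iPS cells against leukemia neither array is compared, and counts change only through the shared estimate of the spread. Background signal was not measured here, so a low value is not shown to be an absence of RNA. In these bulk samples fewer cells of a type and less RNA per cell cannot be told apart.

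All 8 genes were high in leukemia and low in both kinds of colonies and in iPS cells. All 72 values on the 9 colony and iPS arrays lay below the lowest leukemia array of the same gene, by 2.75 (Cd4) to 4.95 (Cd8b1) log2 units. The mean of the 8 genes was 9.39, 9.40 and 9.41 on the leukemia arrays, 5.19, 4.98 and 5.44 on the GFP-positive arrays, 5.18, 4.95 and 5.05 on the GFP-negative arrays and 5.16, 5.35 and 5.01 on the iPS arrays. The colony arrays, at 4.95 to 5.44, spanned the iPS arrays from both sides, and the 2 arrays that stood apart were at 5.44 and 5.18.

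**Figure D1:**
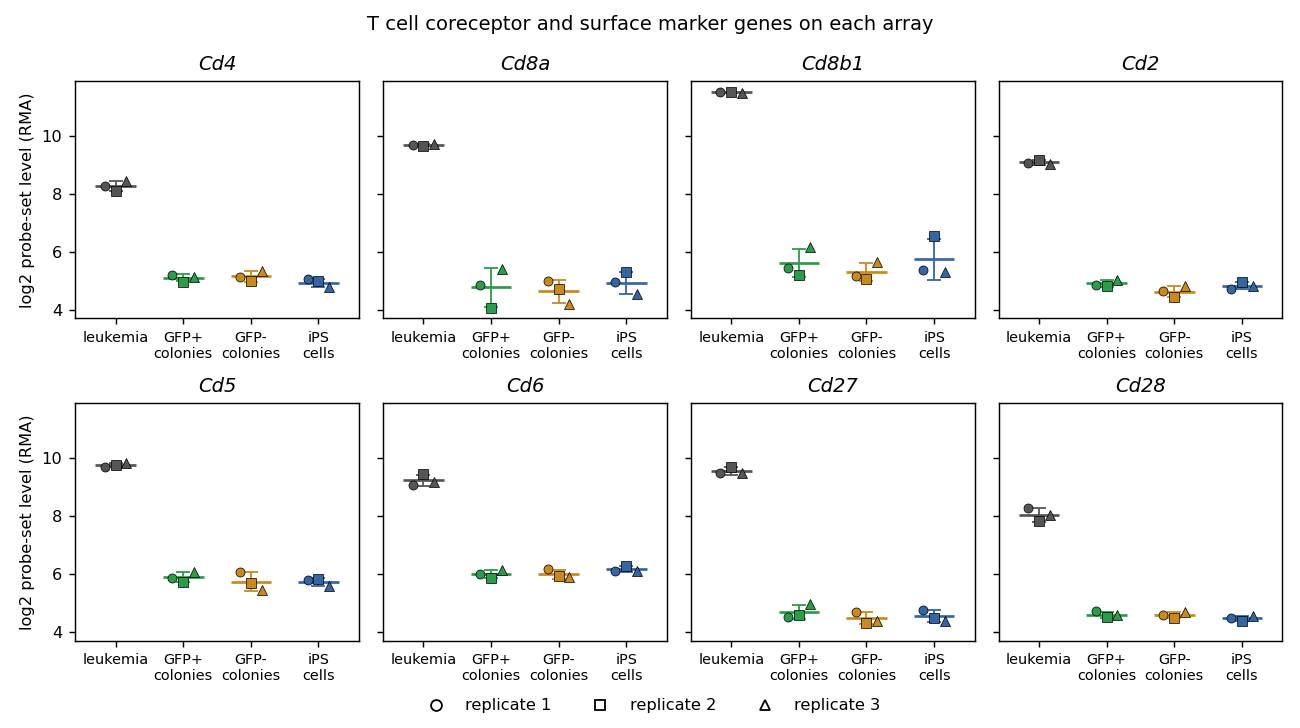
Log2 probe-set levels of the 8 genes (1 panel each) on each of the 12 arrays, with groups ordered from leukemia through both kinds of colonies to iPS cells, with the group mean as a horizontal line, error bars of 1 SD and replicates by symbol. In every panel the 3 leukemia arrays lie above the other 9, with the narrowest gap at 2.75 for Cd4 and the widest at 4.95 for Cd8b1.

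Cd4 encodes the coreceptor of helper T cells. Its log2 level was 8.27, 8.11 and 8.46 on the leukemia arrays, 5.19, 4.97 and 5.15 on the GFP-positive arrays, 5.13, 4.99 and 5.36 on the GFP-negative arrays and 5.05, 4.98 and 4.78 on the iPS arrays. Leukemia stood alone at the top, and the other 3 groups overlapped. Cd4 was 10.1-fold lower in iPS cells than in leukemia (difference -3.34 ± 0.14 SE, adjusted p = 6.40e-08, limma). The differences from leukemia were -3.17 in GFP-positive and -3.12 in GFP-negative colonies (adjusted p = 1.04e-07 and 1.07e-07, limma).

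Cd8a encodes the CD8 alpha chain, which some dendritic cells also carry in mice. Its level was 9.69, 9.65 and 9.74 in leukemia, 4.85, 4.07 and 5.41 in GFP-positive colonies, 4.98, 4.71 and 4.21 in GFP-negative colonies and 4.95, 5.31 and 4.55 in iPS cells. The SD was 0.67 in GFP-positive colonies against 0.05 in leukemia, and the 3 low groups overlapped. Cd8a differed from leukemia by -4.76 ± 0.32 in iPS cells (27.0-fold lower, adjusted p = 2.38e-06, limma), by -4.92 in GFP-positive and by -5.06 in GFP-negative colonies.

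Cd8b1 encodes the CD8 beta chain, which completes the coreceptor of cytotoxic T cells. Its level was 11.54, 11.52 and 11.50 in leukemia, 5.46, 5.22 and 6.17 in GFP-positive colonies, 5.18, 5.05 and 5.65 in GFP-negative colonies and 5.38, 6.55 and 5.29 in iPS cells. Among the 8 genes it had the largest spread in iPS cells (SD 0.70), where replicate 2 was the highest of the 9 low arrays, and the smallest in leukemia (SD 0.02), and the low groups overlapped. Cd8b1 fell most of the 8 genes, by 5.78 ± 0.34 in iPS cells (54.8-fold, adjusted p = 8.24e-07, limma), by 5.90 in GFP-positive and by 6.23 in GFP-negative colonies. By size of decrease it ranked 12 among all genes in iPS cells, 7 in GFP-positive and 5 in GFP-negative colonies.

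Cd2 encodes the adhesion receptor for CD48. Its level was 9.07, 9.19 and 9.03 in leukemia, 4.87, 4.83 and 5.04 in GFP-positive colonies, 4.63, 4.44 and 4.81 in GFP-negative colonies and 4.70, 4.97 and 4.84 in iPS cells. All GFP-negative arrays lay below all GFP-positive arrays, though the nearest 2 measured 4.81 and 4.83, and the iPS arrays overlapped both. Cd2 was 19.1-fold lower in iPS cells than in leukemia (-4.26 ± 0.12, adjusted p = 8.60e-09, limma), with differences of -4.18 in GFP-positive and -4.47 in GFP-negative colonies.

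Cd5 encodes an inhibitor of T cell receptor signals that a subset of B cells carries too. Its level was 9.70, 9.76 and 9.85 in leukemia, 5.88, 5.73 and 6.09 in GFP-positive colonies, 6.08, 5.69 and 5.45 in GFP-negative colonies and 5.80, 5.83 and 5.58 in iPS cells. The highest of the 9 low values was on GFP-positive replicate 3, and the 3 low groups overlapped. Cd5, whose promoter window above held ETS motifs, differed from leukemia by -4.04 ± 0.16 in iPS cells (16.4-fold lower, adjusted p = 5.61e-08, limma), by -3.87 in GFP-positive and by -4.03 in GFP-negative colonies.

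Cd6 lies next to Cd5 and encodes its relative, the receptor for ALCAM. Its level was 9.07, 9.45 and 9.20 in leukemia, 5.99, 5.88 and 6.13 in GFP-positive colonies, 6.18, 5.93 and 5.88 in GFP-negative colonies and 6.12, 6.28 and 6.09 in iPS cells. The low groups overlapped, with the iPS mean the highest of the 3. Cd6 had the smallest difference of the 8 genes in iPS cells, 8.43-fold lower than leukemia (-3.08 ± 0.13, adjusted p = 9.46e-08, limma), and differed by -3.24 in both kinds of colonies.

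Cd27 encodes the receptor for CD70, present on T cells, NK cells and some B cells. Its level was 9.50, 9.71 and 9.48 in leukemia, 4.53, 4.59 and 4.95 in GFP-positive colonies, 4.70, 4.32 and 4.37 in GFP-negative colonies and 4.77, 4.50 and 4.38 in iPS cells. The low groups overlapped, and GFP-positive replicate 3 was again the highest of them. Cd27 was 32.4-fold lower in iPS cells than in leukemia (-5.02 ± 0.16, adjusted p = 1.68e-08, limma), with differences of -4.87 in GFP-positive and -5.10 in GFP-negative colonies.

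Cd28 encodes the main costimulatory receptor of T cells. Its level was 8.28, 7.82 and 8.04 in leukemia, 4.72, 4.51 and 4.57 in GFP-positive colonies, 4.57, 4.47 and 4.70 in GFP-negative colonies and 4.48, 4.39 and 4.55 in iPS cells. The leukemia arrays spread most for this gene among the 8 (SD 0.23), and the low groups overlapped. Cd28 was 11.9-fold lower in iPS cells than in leukemia (-3.57 ± 0.13, adjusted p = 2.85e-08, limma), with differences of -3.45 in GFP-positive and -3.47 in GFP-negative colonies.

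The first question of the design is how far each later stage departs from the leukemia. At an adjusted p under 0.05 (limma, Benjamini-Hochberg over 22180 genes), 8 of 8 genes fell in iPS cells, where 11.9% of all genes fell and 12.4% rose. The count was 8 of 8 in GFP-positive colonies, where 12.3% of all genes fell and 9.6% rose, and 8 of 8 in GFP-negative colonies, where 12% fell and 9.02% rose. After cyclic loess normalization the background was 9.15% fallen and 12.2% risen in GFP-positive and 9.83% and 11.3% in GFP-negative colonies, and the 8 genes still fell. In each of these comparisons the arrays of the groups did not overlap for 8 of 8 genes, with leukemia higher, as for 28.7% of all genes in iPS cells, 23.8% in GFP-positive and 20.9% in GFP-negative colonies. The median difference of the 8 genes was -4.15 in iPS cells, -4.03 in GFP-positive and -4.25 in GFP-negative colonies, against -0.03, -0.04 and -0.01 for all genes. The 3 comparisons share the leukemia arrays. Leaving out GFP-positive replicate 3 and GFP-negative replicate 1, chosen after their values were seen, left 8 of 8 genes lower in each. The share of all genes called in that setting is not given. Over all alternatives limma called at most 10545 of 22180 genes in iPS cells, 8188 in GFP-positive and 8673 in GFP-negative colonies, in either direction.

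**Figure D2:**
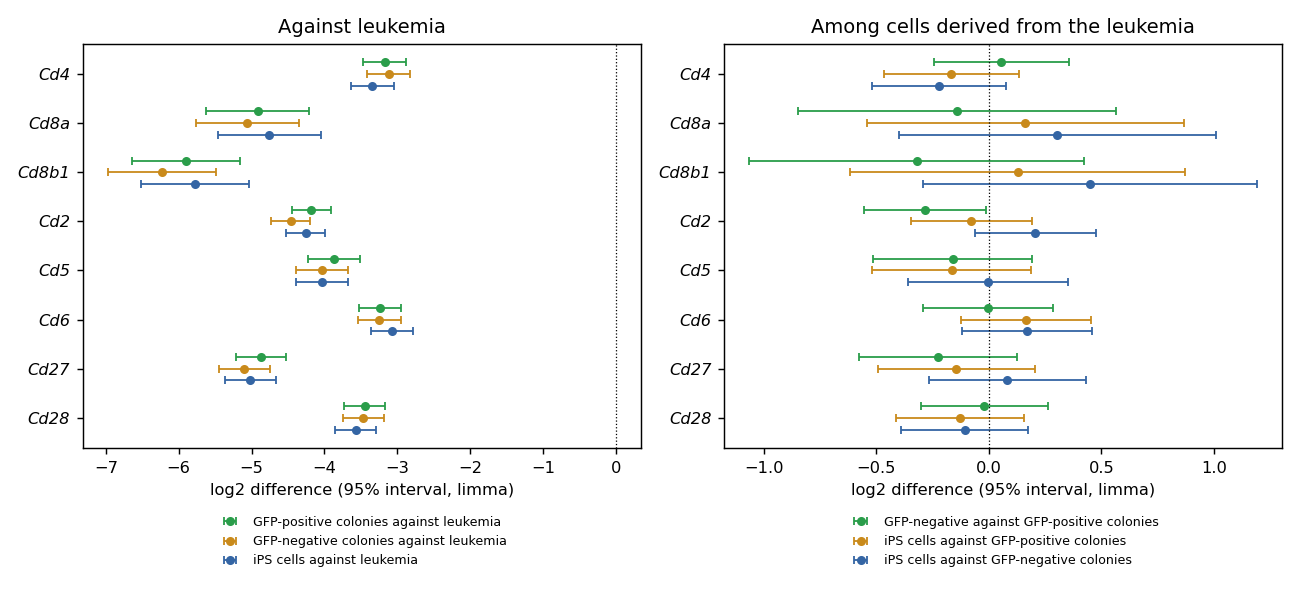
Log2 differences of the 8 genes with 95% intervals from limma, on the left for each later group minus leukemia and on the right for the comparisons among colonies and iPS cells. All differences from leukemia lie between -6.23 and -3.08, and all those among the other groups lie between -0.32 and 0.45 with 1 interval, that of Cd2, clear of 0.

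The second question is whether the colonies still differ from established iPS cells. Of the 8 genes, limma called 0 in iPS cells against GFP-positive colonies, where 10.4% of all genes were called, and 0 had an unadjusted p under 0.05. The groups did not overlap for 0 of the 8 genes, against 38.1% of all genes. The differences ran from -0.17 to 0.17, and their 95% intervals reached from -0.62 to 0.87. The intervals were widest for both CD8 chains, at -0.54 to 0.87 for Cd8a and -0.62 to 0.87 for Cd8b1, and narrowest for Cd2, at -0.35 to 0.19. Changes within those bounds are compatible with these arrays, while the differences from leukemia, all of -3.08 or below, lie far outside them.

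In iPS cells against GFP-negative colonies limma called 0 of the 8 genes, where 4.25% of all genes were called, and again 0 had an unadjusted p under 0.05. The groups did not overlap for 0 of the 8 genes, against 27.1% of all genes. The differences ran from -0.22 for Cd4 to 0.45 for Cd8b1, with intervals from -0.52 to 0.08 for Cd4 and from -0.29 to 1.19 for Cd8b1. Cd2 differed by 0.21 (interval -0.06 to 0.48, adjusted p = 0.380, limma). It was called in 1 of the alternatives, the fit with array weights, at 0.34 ± 0.11 (adjusted p = 0.0470, limma).

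Between GFP-negative and GFP-positive colonies limma called 0 of the 8 genes, and 0% of all genes were called, with 1413 of all genes at an unadjusted p under 0.05. The 0% rests on 1 array, since 4.59% of all genes were called without GFP-negative replicate 1, where again 0 of the 8 were called, and the fit with array weights called 1315 genes, 0 of the 8 among them. Cd2 was the 1 gene of the 8 with an unadjusted p under 0.05, at -0.28 ± 0.12 (adjusted p = 0.760, limma), and the 1 whose groups did not overlap, with GFP-negative colonies lower. Of all genes 6.53% did not overlap in this comparison, and 2.23% with GFP-negative colonies lower. The differences ran from -0.32 for Cd8b1 to 0.06 for Cd4, and their intervals from -1.06 to 0.56. Of the 9 low arrays, GFP-positive replicate 3 was the highest for 4 genes (Cd8a, Cd2, Cd5 and Cd27) and iPS replicate 2 for 2 (Cd8b1 and Cd6).

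After leukemia, the order of the group means differed from gene to gene. GFP-negative colonies came next for Cd4, iPS cells for Cd8a, Cd8b1 and Cd6, and GFP-positive colonies for Cd2, Cd5, Cd27 and Cd28. No neighbouring pair in these orders below leukemia differed at an adjusted p under 0.05 (limma), and the widest gap between any of these means was 0.45, for Cd8b1.

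The CD3 chains mark the same lineage and were measured apart from the 8 genes. Cd3e, a signalling chain of the T cell receptor complex, measured 11.86, 11.83 and 11.92 in leukemia, 8.50, 8.26 and 9.57 in GFP-positive colonies, 9.83, 6.13 and 6.04 in GFP-negative colonies and 6.43, 6.85 and 6.63 in iPS cells. The colony arrays spread widely for Cd3e, with GFP-negative replicate 1 and GFP-positive replicate 3 highest, and all 9 colony and iPS arrays lay below leukemia. Cd3e differed from leukemia by -5.23 ± 0.82 in iPS cells (adjusted p = 9.47e-04, limma), by -4.53 in GFP-negative colonies and by -3.09 in GFP-positive colonies (adjusted p = 0.0207). The last call was lost without any 1 of 5 of the 6 arrays, with an adjusted p of up to 0.0659 (limma). Differences of Cd3e among the later groups were not called, at -2.14 for iPS cells against GFP-positive colonies, -0.70 against GFP-negative colonies and -1.44 for GFP-negative against GFP-positive colonies. Whether Cd3e and the 8 genes differ in how far they fell was not tested.

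Cd3g measured 12.02, 12.05 and 12.08 in leukemia, 5.25, 4.63 and 7.05 in GFP-positive colonies, 5.01, 4.21 and 5.19 in GFP-negative colonies and 4.57, 5.27 and 4.38 in iPS cells. Its highest low value was on GFP-positive replicate 3, as for 4 of the 8 genes. The 5 measured T lineage genes outside the 8 fell in each comparison with leukemia, where 11.9% to 12.3% of all genes fell. Cd3g fell by 7.31 and Cd3d by 6.32 in iPS cells. Leaving out 1 array ended none of the calls of these 5 genes other than that of Cd3e in GFP-positive colonies.

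Other cell types could be in these samples, and their markers were read on the same arrays. The mean of 13 macrophage and granulocyte markers was 8.24 to 8.27 in leukemia, 5.92 to 7.54 in GFP-positive colonies, with replicate 3 highest, 5.55 to 6.71 in GFP-negative colonies and 5.72 to 5.96 in iPS cells. In iPS cells against leukemia 11.9% of all genes fell and 12.4% rose, the background for each list in this paragraph. Of these 13 markers 6 fell, Ngp by 5.96 and Camp by 5.53, and 1 rose, Cd68 by 1.36. Without both arrays that stood apart 10 fell. In GFP-positive colonies 8 of the 13 differences from leukemia were negative and 5 positive. The macrophage genes C1qb, C1qa and Mpeg1, named after their values were seen, reached 10.87, 10.11 and 9.18 on their highest GFP-positive array. In leukemia they measured at most 6.63, 6.86 and 6.71, and their GFP-positive medians were 6.64, 6.65 and 6.00. The mean of 8 NK cell markers was 4.88 to 5.34 on the colony and iPS arrays, against 5.93 to 5.95 in leukemia. That of 7 B cell markers was 5.53 to 5.91 against 6.73 to 6.75, and that of 8 dendritic cell markers 5.88 to 6.70 against 6.25 to 6.30, both in the same order. In iPS cells 4 of the 8 NK markers fell, Gzma by 4.73, and 5 of the 7 B cell markers, Ighm by 4.08. Gzma and Ighm had the largest falls of their lists, whose median differences were only -0.54 and -0.73. In each list 1 difference was positive and not called, Eomes at 0.78 and Blnk at 0.21, both named after their values were seen. Of the dendritic cell markers Cd209a (-0.88) and Flt3 (-0.55) fell in iPS cells, and the call of Flt3 ended without any 1 of the 6 arrays. The means of the NK and B cell markers, from cells that can carry Cd27 and Cd5, were lower together with the 8 genes, and their part in the result was not tested. That of the dendritic cell markers was above leukemia on 1 array, GFP-positive replicate 3, at 6.70.

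Of 8 pluripotency markers, 5 rose in iPS cells, 4 in GFP-positive and 3 in GFP-negative colonies relative to leukemia. Of 7 epithelial markers 4, 7 and 5 rose, with none lower in either list (limma). The shares of all genes that rose were 12.4%, 9.6% and 9.02%. Without GFP-negative replicate 1, 7 pluripotency markers rose in GFP-negative colonies, and without both arrays that stood apart 6 rose in GFP-positive colonies. Whether calls over all genes grew alike in these settings is not given. The mean of the 8 pluripotency markers was 4.84 to 5.23 in leukemia, 7.44 to 9.57 in GFP-positive colonies, 6.43 to 9.72 in GFP-negative colonies and 9.57 to 9.62 in iPS cells. It was lowest among colonies on GFP-negative replicate 1, at 6.43, and next on GFP-positive replicate 3, at 7.44, arrays on which the mean of the 8 genes was 5.18 and 5.44. Nanog, a core pluripotency factor, was 7.59 ± 1.53 higher in iPS cells than in leukemia (adjusted p = 0.00445, limma) and 5.10 higher in GFP-positive colonies (adjusted p = 0.0371), a call lost without any 1 of 5 of the 6 arrays. In GFP-negative colonies its difference was 4.70 (adjusted p = 0.0530, limma), and among the later groups it was 2.49, 2.88 and -0.40 with no call. The mean of the 7 epithelial markers was 5.22 to 5.45 in leukemia, 11.47 to 11.70 in GFP-positive colonies, 7.87 to 11.96 in GFP-negative colonies and 8.20 to 8.27 in iPS cells. The 9 arrays with epithelial means from 7.87 to 11.96 had means of the 8 genes between 4.95 and 5.44.

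**Figure D3:**
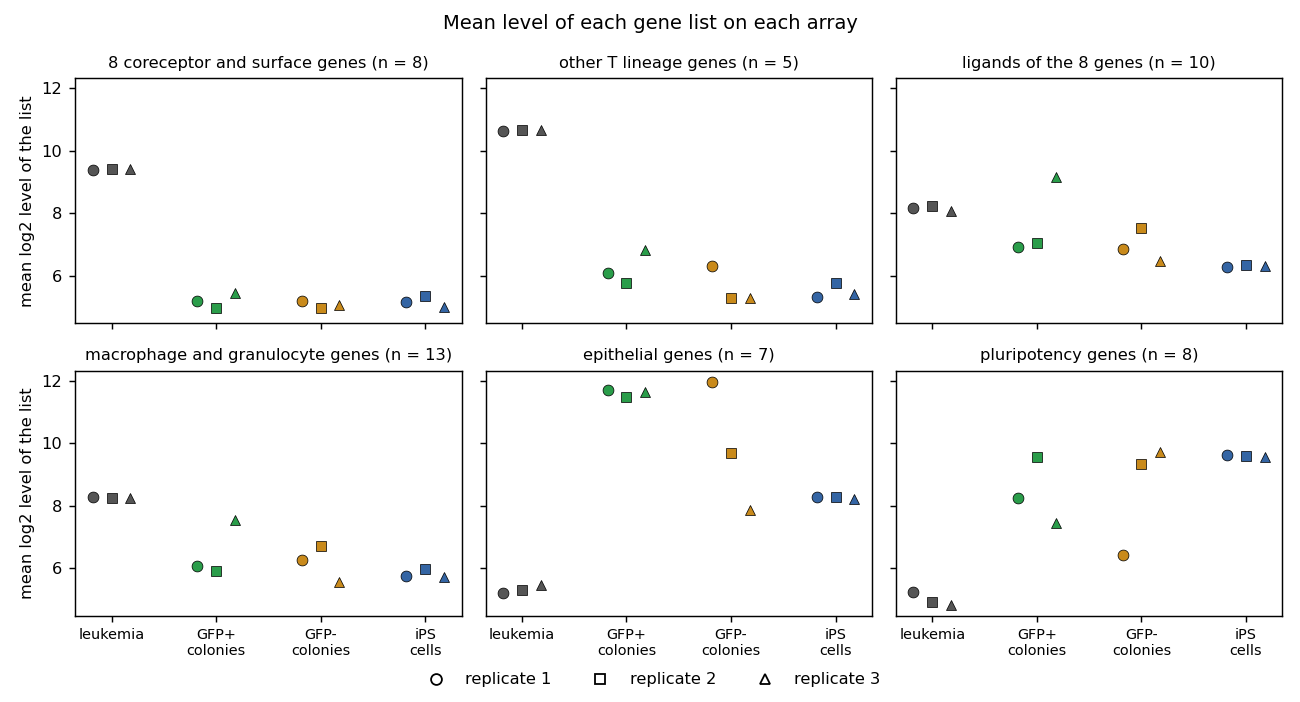
Mean log2 level of the 8 genes and of 5 other gene lists, T lineage, ligands, macrophage and granulocyte, epithelial and pluripotency genes (1 panel each, with the number of genes measured) on each of the 12 arrays, with groups ordered from leukemia through both kinds of colonies to iPS cells, with replicates by symbol. The 8 genes lie between 4.95 and 5.44 on all colony and iPS arrays, and the ligands on GFP-positive replicate 3, at 9.17, lie above their own level in leukemia, at 8.07 to 8.23.

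Some of the genes for ligands of the 8 proteins were lower in iPS cells, while in the colonies their count was near the share of all genes. Of 10 ligand genes measured, 4 fell in iPS cells relative to leukemia, and 2 in GFP-positive and 2 in GFP-negative colonies, against 11.9%, 12.3% and 12% of all genes. Their median difference was -2.05 in iPS cells, -0.19 in GFP-positive and -0.87 in GFP-negative colonies. Cd48, the ligand of CD2, differed by -4.47 ± 0.66 in iPS cells (adjusted p = 6.80e-04, limma), by -3.44 in GFP-positive and by -4.04 in GFP-negative colonies. Alcam, the ligand of CD6, differed by -0.75 in GFP-positive and by -0.98 in GFP-negative colonies (adjusted p = 0.00995 and 0.00235, limma). The other falls in iPS cells were those of the MHC class II chain H2-Ab1 (-4.08) and, named after their values were seen, the MHC class I genes H2-K1 (-2.42) and B2m (-2.48). The calls of H2-Ab1 and B2m ended without any 1 of the 6 arrays compared, which left 2, and without both arrays that stood apart 7 ligands fell and 1 rose in iPS cells. In GFP-positive colonies 4 ligands fell without replicate 3, and the median turned to 0.02 without replicate 1 and 0.16 without replicate 2. In GFP-negative colonies 4 fell without replicate 1, and the shares of all genes called in these settings are not given.

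On GFP-positive replicate 3 the ligands of CD4 were higher than in leukemia. So were H2-K1 (11.05 against 9.53 to 9.61), B2m (12.85 against 12.19 to 12.31), Cd86 (8.27 against 5.72 to 6.23) and Cd80 (6.79 against 6.39 to 6.67). These were named after their values were seen. H2-K1 was above leukemia also on GFP-positive replicate 1 (9.96) and GFP-negative replicate 1 (10.40). H2-Ab1 measured 10.17, 10.19 and 10.16 in leukemia, 7.28, 7.07 and 12.58 in GFP-positive colonies, 6.90, 9.96 and 7.09 in GFP-negative colonies and 5.90, 6.44 and 5.95 in iPS cells. Cd48 on GFP-positive replicate 3, at 7.67, was above the other colony arrays, at 4.44 to 5.81, but below leukemia. Alcam was below leukemia on that array too, and Cd70 lay within the leukemia range. Cd4 and Cd2 themselves were 5.15 and 5.04 there.

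The genes through which the 8 proteins signal were mostly lower as well. Of 21 measured kinases, phosphatases and adaptors, 15 fell in iPS cells, 16 in GFP-positive and 16 in GFP-negative colonies relative to leukemia. The shares of all genes that fell were 11.9%, 12.3% and 12%, and the medians of the 21 were -1.68, -1.83 and -1.81. Themis, an adaptor of thymocyte selection, differed by -4.90 ± 0.10 in iPS cells (29.9-fold lower, adjusted p = 1.65e-09, limma), and Lat, the membrane scaffold of the receptor, by -4.47. Cd2ap, an adaptor that binds the CD2 tail and is also found in epithelial cells, was higher by 2.11 ± 0.34 in GFP-positive and by 1.74 in GFP-negative colonies (adjusted p = 0.00126 and 0.00412, limma). In iPS cells its difference from leukemia was 0.73 (adjusted p = 0.155, limma). Lck, the kinase that CD4 and CD8 carry, was not analysed here. Without both arrays that stood apart, 18, 17 and 18 of the 21 fell in iPS cells, GFP-positive and GFP-negative colonies.

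Most of the other receptors of the T cell surface were lower too. Of 18 measured, 13 fell in iPS cells, 11 in GFP-positive and 14 in GFP-negative colonies relative to leukemia. The shares of all genes that fell were 11.9%, 12.3% and 12%, and the medians of the 18 were -1.08, -0.96 and -0.91. Cd69, an early activation marker, differed by -4.94 in iPS cells, -4.40 in GFP-positive and -4.67 in GFP-negative colonies. Cd96, a receptor of T and NK cells, differed by -3.81 in iPS cells, and Thy1, the thymocyte antigen, by -3.99 in GFP-positive and -3.88 in GFP-negative colonies. No receptor was called higher. Cd44, an adhesion receptor found on many cell types and named after its values were seen, measured 9.86 to 11.55 in GFP-positive colonies against 7.55 to 7.79 in leukemia, a difference of 2.92 ± 1.06 that was not called (adjusted p = 0.0764, limma). Cd160 and Tnfrsf4, also named after their values were seen, differed by -0.07 and 0.14 in iPS cells with no call. Without both arrays that stood apart 15, 15 and 16 receptors fell, and 1 rose in GFP-positive colonies.

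Transcription factors known to act on Cd4 and Cd8 expression fell too. Of 15 measured, 12 fell in iPS cells, 14 in GFP-positive and 14 in GFP-negative colonies relative to leukemia. The shares of all genes that fell were 11.9%, 12.3% and 12%, and the medians of the 15 were -3.00, -1.91 and -3.01. Ikzf1, which encodes Ikaros, differed by -6.09 ± 0.59 in iPS cells (adjusted p = 3.51e-05, limma) and by -5.52 in GFP-negative colonies. Lef1, of the TCF/LEF family, differed by -5.97 in iPS cells, -5.71 in GFP-positive and -5.17 in GFP-negative colonies, and Myb by -4.20 in GFP-positive colonies. Zbtb7b, the factor of the CD4 helper lineage, was not called in any of these comparisons, at 0.35, 0.51 and 0.28, and is named after its values were seen. It was the only regulator with a positive difference. After cyclic loess normalization 13 regulators were called lower and 1 higher in GFP-positive colonies. The call of Runx1 in GFP-positive colonies ended without any 1 of the 6 arrays, with an adjusted p of up to 0.103 (limma). That of Tcf3 in GFP-negative colonies ended without leukemia replicate 1. Without both arrays that stood apart 14 of the 15 fell in each.

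Of these 64 ligands, partners, receptors and regulators, 12.5% were called in iPS cells against GFP-positive colonies, against 10.4% of all genes, and 4.69% in iPS cells against GFP-negative colonies, against 4.25% of all genes, so both shares were near the background. In iPS cells against GFP-positive colonies 7 were lower, among them H2-K1 (-2.98) and Cd86 (-2.32), Cd2ap (-1.38), and the regulators Ikzf1 (-2.24) and Satb1 (-2.04), and 1, Thy1, was higher by 0.68. In iPS cells against GFP-negative colonies Themis was lower by 0.51, and Alcam and Tnfrsf4 were higher by 0.78 and 0.71. All 11 of these calls ended without at least 1 array. Of the calls of the 64 relative to leukemia, 3 of 44 in iPS cells, 3 of 44 in GFP-positive and 5 of 47 in GFP-negative colonies did so. Between GFP-negative and GFP-positive colonies limma called 0 of the 64 and 0% of all genes. Without GFP-negative replicate 1 it called 9 of the 64, all lower, and 4.59% of all genes, and without both arrays that stood apart 9 lower and 2 higher, and 4.73% of all genes.

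Some of the 8 genes lie beside other immune genes, so their nearest measured protein-coding neighbours were read too, picked by position after values had been seen. Cd8b1 and Cd8a are neighbours between Gm1070 and Rmnd5a on chromosome 6, and Cd5 and Cd6 between Vps37c and Slc15a3 on chromosome 19. Cd28 lies beside Ctla4 on chromosome 1, Cd4 beside Lag3 and Cd27 between Tapbpl and Ltbr on chromosome 6, and Cd2 between Ptgfrn and Igsf3 on chromosome 3. Of the 12 neighbours 4 fell and 1 rose in iPS cells relative to leukemia, where 11.9% of all genes fell and 12.4% rose. The neighbours had a median difference of 0.01, against -4.15 for the 8 genes. Ctla4 and Lag3 are also among the 18 receptors counted above. The falls were those of Ctla4, an inhibitory relative of CD28, at -1.72 ± 0.12 (adjusted p = 3.33e-06, limma), Tapbpl at -2.20 ± 0.46, Rmnd5a at -1.46 ± 0.18 and Lag3, a relative of CD4, at -0.72 ± 0.15. Raph1 rose by 0.89 ± 0.20 (adjusted p = 0.00886, limma). The other 7 were not called, among them Gpr162 beside Cd4 (-0.02) and Vps37c beside Cd5 (0.03). In each kind of colony 3 neighbours fell, Lag3, Rmnd5a and Ctla4, and Raph1 rose. Over all genes 12.3% fell and 9.6% rose in GFP-positive colonies, and 12% and 9.02% in GFP-negative colonies. The call of Lag3 in GFP-negative colonies ended without leukemia replicate 1 or 2.

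**Figure D4:**
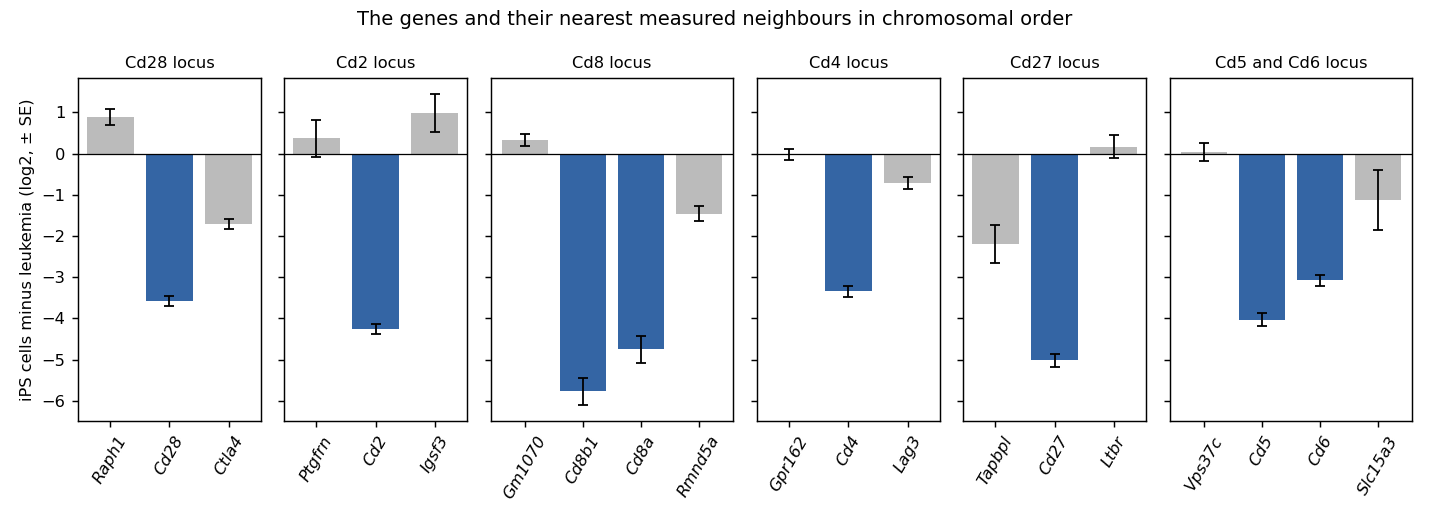
Difference of iPS cells minus leukemia (log2, ± SE) for the 8 genes and their nearest measured neighbours, in chromosomal order, 1 panel for each locus. The 8 genes lie between -5.78 and -3.08, and the 12 neighbours between -2.20 (Tapbpl) and 0.99 (Igsf3).

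Across the 12 arrays the 8 genes had nearly the same pattern. The Pearson correlation of their levels ran from 0.979 to 0.998 over the 28 pairs (median 0.991), as a description, since the arrays are shared and the gap between leukemia and the rest sets it. With group means removed it ran from -0.59 to 0.83 (median 0.22). The genes of most similar level to Cd4 were Trav12-2, Grap2 and Ighm (r = 0.996 each), to Cd8a Ctla4 (0.996), Gpr132 (0.995) and Tbc1d10c (0.994), and to Cd8b1 Dusp2, Ripor2 and E2f2 (0.994 each). For Cd2 they were Prss2 (0.998), Elane and Il12rb2 (0.997 each), and for Cd5 they were Slamf6, Cd27 (0.998 each) and Cd96 (0.997). For Cd6 they were Prss2, Sit1 (0.997 each) and Trat1 (0.996), for Cd27 Cd5 (0.998), Skap1 and Prss2 (0.997 each), and for Cd28 Cmah (0.997), Cd4 (0.996) and Arpp21 (0.995). With group means removed the closest genes were others, such as Hoxc8 for Cd8a (0.989), Tas2r124, a taste receptor gene, for Cd2 (0.929) and Olfr191, an olfactory receptor gene, for Cd6 (0.926). Each of these genes was picked for the highest of very many correlations over 12 arrays. High values arise from such a choice alone, so they are a description too.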

How the data were processed

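Per the labels, total RNA was labelled with biotin for Affymetrix arrays. The log2 values used here are those the authors deposited, computed with RMA per the submitters' processing notes, whose version is not given in the sources used here. RMA equalises the distributions of the arrays, so a shift of most genes would be removed. Of 41345 probe sets, 23521 had 1 gene symbol, 1814 several and 16010 none in the platform annotation. The brightest probe set of each symbol was kept, giving 22180 genes.

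The 12 arrays entered a single limma fit (version 3.58.1, R 4.3.3) of the 4 group means, moderated by empirical Bayes, whose code was first tested on simulated data. The threshold for a call was an adjusted p of 0.05 (Benjamini-Hochberg). Levels are given per array or as mean and SD (n = 3), and differences with SE or 95% intervals.

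The 8 genes and the 11 other lists were chosen with earlier results of these data known. From each list the rule names the 2 largest called increases and decreases, plus Cd3e, Lck and Nanog, of which the largest are printed. Some genes of these lists, Lck among them, were not analysed here. Alternatives were the normalization, a filter on dim genes, the spread model, array weights, a replicate block and leaving out arrays.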

Additional observations from a re-analysis of the deposited data

How the results depend on the processing

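The 8 falls in each comparison with leukemia kept their direction and their call under all 17 alternatives. Differences ranged from -6.18 to -2.97 in iPS cells, from -6.18 to -3.07 in GFP-positive and from -6.40 to -3.03 in GFP-negative colonies, with adjusted p values of at most 1.62e-04 (limma). Among colonies and iPS cells the count of called genes moved once, to 1 in iPS cells against GFP-negative colonies with array weights (Cd2, 0.34, adjusted p = 0.0470). The array weights stopped before their set tolerance. Small differences changed sign under some settings. With array weights Cd5 differed by 0.060 in iPS cells against GFP-negative colonies and Cd4 by -0.10 in GFP-negative against GFP-positive colonies. Without both arrays that stood apart, an alternative chosen after seeing the data, these were 0.17 for Cd5 and, in GFP-negative against GFP-positive colonies, 0.011 for Cd8b1. Leaving out 1 array at a time turned the sign in iPS cells against GFP-positive colonies for Cd8a (-0.19 to 0.48) and Cd8b1 (-0.28 to 0.40). It did so in iPS cells against GFP-negative colonies for Cd5 (-0.15 to 0.17) and Cd27 (-0.028 to 0.20), and in GFP-negative against GFP-positive colonies for Cd4 (-0.044 to 0.14), Cd28 (-0.079 to 0.038), Cd8a (-0.49 to 0.17) and Cd6 (-0.097 to 0.062). The cause was not tested.

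Correlations of same-numbered deviations from the group means ran from -0.38 to 0.32, with 2 of 18 over 0.1. With 3 arrays per group they cannot decide whether replicate numbers pair the arrays. With the replicate block 8 genes were called in each comparison with leukemia and 0 in the others. Counts over all genes depended more on the setting, with array weights giving the most in every comparison. Limma called 3900 to 10545 genes in iPS cells against leukemia (5395 as reported), 3407 to 8188 in GFP-positive colonies (4848) and 3267 to 8673 in GFP-negative colonies (4655). In iPS cells it called 597 to 6984 against GFP-positive colonies (2304) and 190 to 4397 against GFP-negative colonies (943). In GFP-negative against GFP-positive colonies it called 1315 with array weights, 1049 without both arrays that stood apart and 1019 without GFP-negative replicate 1, instead of 0. Signal over background was not measured, so values near the low end have no known floor, and 3 arrays per group limit the precision.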
